A study of Mus musculus with 6 samples.

Results

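Hippocampal nuclei hold transcripts of many genes whose proteins join the 2 sides of a synapse, and 35 such synaptic adhesion and postsynaptic scaffold genes were described here across cell classes and across treatment with a histone deacetylase inhibitor. The 35 genes were taken by symbol from a named list, and all 35 were among the 31053 genes of the deposited matrices. RNA of single nuclei came from a tissue given as hippocampus with DG in brackets, read at its 3' ends in droplets. The drug group (HDACi) had CI-994, which inhibits class I histone deacetylases, at an intraperitoneal dose of 30 mg/kg, and the control group (Veh) had only the vehicle of DMSO, Kolliphor and saline. Injection came 1 h ahead of a session in a chamber, and tissue was taken 1 h past its end. The session was contextual fear conditioning (CFC), with 2 foot shocks of 0.2 mA and 1 s, or Context, the same chamber time without shocks. All mice were male C57BL/6J animals aged 12 weeks, and each library pooled nuclei from the hippocampi of 5 mice, 30 mice in all. The 6 libraries were 2 HDACi-CFC, 2 Veh-CFC, 1 HDACi-Context and 1 Veh-Context. The study's stated question was which transcriptional differences the inhibitor brings to hippocampal cell types after CFC.

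Every group shared the injection, the chamber and nuclei buffers with actinomycin D, which blocks transcription. The library labelled Veh-Context has a title and a treatment label of vehicle, whereas HDACi stands in its description. Here it counts as vehicle, and the baseline counts were also computed without it (79 higher and 194 lower over the 10 classes, against 78 and 195 with it). Since only 4 libraries are described as pooled for sequencing, the 2 Context libraries may have been prepared separately. The p-values measure the spread between libraries of pooled mice, of which each CFC group has 2.

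Total UMI (unique molecular identifier) counts per library ran between 24508202 and 45570814, and 26839 nuclei were kept. Libraries shared between 1 and 9 barcodes per pair. Clustering, with the 35 genes and the related lists left out of the input, gave 28 clusters, and marker lists named 11 classes with at least 30 nuclei in each CFC library, written with "-like". The 6 unnamed clusters held 7.79% to 9.01% of nuclei in the HDACi-CFC libraries and 8.32% to 9.70% in the Veh-CFC libraries. DG granule-like nuclei, the principal neurons of the dentate gyrus, numbered 1135 and 1495 in the HDACi-CFC libraries and 1061 and 1531 in the Veh-CFC libraries. All 8 granule markers were detected in them, with a summed level of 3211 to 3236 CPM in HDACi-CFC and 2438 to 2512 CPM in Veh-CFC. Barcodes without a cell call were not in the matrices used, so free RNA was not measured.

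At a synapse, presynaptic neurexins and receptor phosphatases of the LAR family reach across the cleft to postsynaptic partners. The partners of neurexins include neuroligins and LRRTM proteins, and those of the LAR-type phosphatases include the SLITRK, LRFN and IL1RAPL proteins. Inside the postsynaptic side of excitatory synapses, DLG proteins (membrane-associated guanylate kinases) bind receptors and adhesion molecules, DLGAP proteins bind DLG, and SHANK proteins bind DLGAP, which stacks the scaffold in layers. Many of these genes are very long. Nuclear RNA includes unspliced and newly made transcripts, and its levels need not follow protein levels. In sums over a class, fewer nuclei with a transcript and less RNA per nucleus cannot be told apart.

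The 35 genes spanned 5.359 to 2271 kb, with a median of 125.4 kb against 12.64 kb over all annotated genes in the matrices. There were 18 genes longer than 100 kb and 6 longer than 1000 kb, and 6 lie on chromosome X. A gene on the opposite strand that was also counted overlapped 17 of the 35. Whether the counting used strand is not given in the sources used here, so whether reads of such a pair were counted apart is not known.

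Without the inhibitor, members of one family often had their highest mean in different classes, though many of these means overlapped the next class. Levels are means over the 3 vehicle libraries, in CPM, the UMIs of a gene relative to all UMIs of the class after TMM scaling (trimmed mean of M values), scaled jointly over classes. They therefore differ from the CPM of the drug comparisons, which were scaled within a class. Lrrtm4, a postsynaptic partner of neurexins and heparan sulfate proteoglycans, was highest in DG granule-like nuclei at 8849 ± 319 CPM (SD, n = 3). The next class, subicular or cortical excitatory-like, had 5597 ± 744 CPM, and the libraries of the 2 classes did not overlap. Lrfn5, an adhesion protein that binds LAR-type phosphatases, was also highest in DG granule-like nuclei, at 1989 ± 10.6 CPM, above the 1463 ± 144 CPM of the next class. By contrast Lrrtm3 was highest in subicular or cortical excitatory-like nuclei at 795.6 ± 144 CPM and lowest in CA3-like nuclei at 11.04 ± 0.653 CPM. Its level in the highest class overlapped that of oligodendrocyte precursor-like nuclei at 770.5 ± 111 CPM.

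Presynaptic partners peaked elsewhere. Nrxn3, a neurexin, stood highest in interneuron-like nuclei at 9171 ± 199 CPM, followed by CA3-like nuclei at 7884 ± 443 CPM without overlap. Nrxn2, its paralog, was highest in oligodendrocyte precursor-like nuclei at 854.6 ± 132 CPM, above astrocyte-like nuclei at 372.5 ± 89 CPM. Ptprd, a LAR-type phosphatase, had 8890 ± 357 CPM in subicular or cortical excitatory-like nuclei and 5354 ± 507 CPM in oligodendrocyte-like nuclei. Its relatives Ptprf and Ptprs were both highest in Cajal-Retzius-like nuclei, at 115.6 ± 36.8 and 457.4 ± 52.6 CPM. Cntnap2, which helps to cluster potassium channels on axons, reached 9802 ± 2000 CPM in Cajal-Retzius-like nuclei. Cntnap4, its relative known from interneurons, had 569.8 ± 45.5 CPM in interneuron-like nuclei. In edgeR's quasi-likelihood test that was 61.2-fold above DG granule-like nuclei.

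The highest means of the neuroligins and scaffolds were also spread over classes, though those of the DLGAP genes all overlapped the next class. Nlgn1, the neuroligin of excitatory synapses, was highest in CA3-like nuclei at 5635 ± 214 CPM. Nlgn2, which sits at inhibitory synapses, and Nlgn3, found at both kinds, were highest in oligodendrocyte precursor-like nuclei at 67.19 ± 13.3 and 118.3 ± 0.722 CPM. Dlgap1, Dlg3 and Slitrk3 had their highest mean in DG granule-like nuclei. Of these only Slitrk3, at 55.43 ± 9.38 CPM, did not overlap the next class. Dlg1 was the single gene with its peak in oligodendrocyte-like nuclei, at 530.1 ± 40.2 CPM. Shank3 was highest in CA3-like nuclei at 112.1 ± 6.44 CPM and lowest in microglia-like nuclei at 2.07 ± 1.83 CPM. Of the 35 highest means, 6 were in oligodendrocyte precursor-like and 5 each in CA1-like, CA3-like and DG granule-like nuclei. Interneuron-like and subicular or cortical excitatory-like nuclei had 4 each and Cajal-Retzius-like nuclei 3. Astrocyte-like, immature neuron-like and oligodendrocyte-like nuclei had 1 each. Many of these means overlapped the next class, so the tally does not rank the classes. In oligodendrocyte precursor-like nuclei those of Il1rapl1, Lrrtm2 and Slitrk1 overlapped it, and those of Nlgn2, Nlgn3 and Nrxn2 did not.

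**Figure D1:**
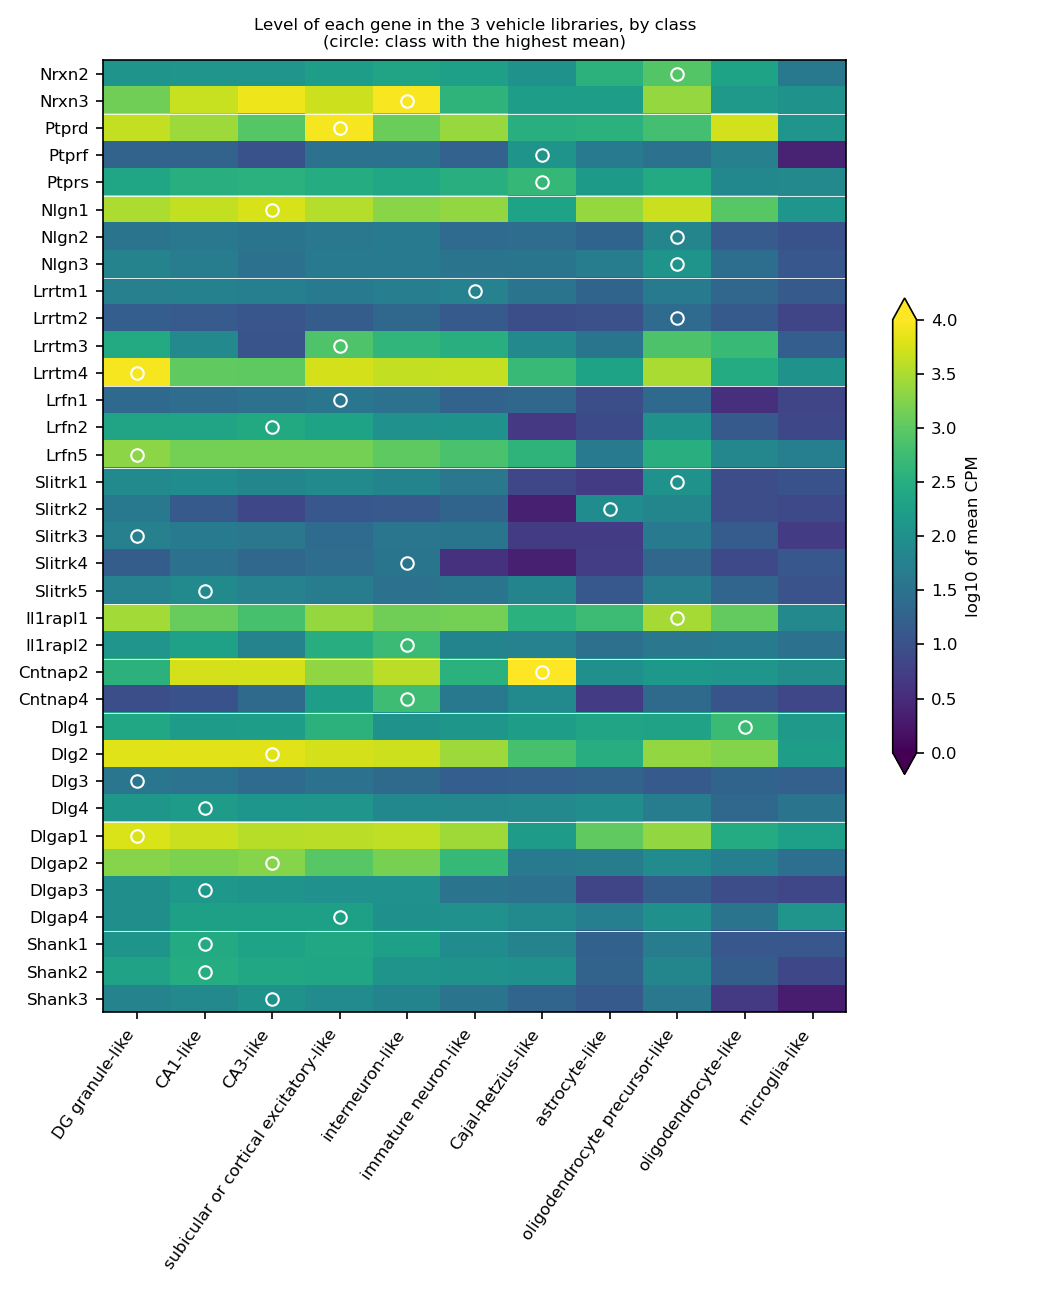
Mean level of each gene (down the page, grouped by family) in each class (across), as log10 of CPM over the 3 vehicle libraries, with a circle on the class with the highest mean. Lrrtm4 peaked in DG granule-like nuclei at 8849 CPM, Nrxn3 in interneuron-like nuclei at 9171 CPM and Cntnap2 in Cajal-Retzius-like nuclei at 9802 CPM.

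The most abundant genes of each class were few. Dlg2, the scaffold known as PSD-93, was among the 3 highest in every class except astrocyte-like and oligodendrocyte precursor-like, from 175.4 CPM in microglia-like to 6659 CPM in CA3-like nuclei. Per length the order changed. In DG granule-like nuclei, per 100 kb of gene, the short gene Slitrk1 had 1510 CPM, Lrrtm4 had 1120 CPM, Slitrk5 had 743 CPM and Dlgap1 had 701 CPM.

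Each class was tested against DG granule-like nuclei in a joint edgeR fit with library as a block. The counts below are out of 35, and the percentages are the shares of all 15320 tested genes called in that direction. In CA1-like nuclei 13 were higher (background 19.6%) and 10 lower (19.7%), in CA3-like 13 higher (19.3%) and 14 lower (19.7%), and in subicular or cortical excitatory-like 15 higher (19.5%) and 8 lower (19.8%). In interneuron-like nuclei 12 were higher (23.8%) and 18 lower (24.9%). Glial classes were mostly lower. Astrocyte-like nuclei had 3 higher (24.5%) and 28 lower (26.7%), oligodendrocyte-like 5 higher (28%) and 28 lower (31.3%), microglia-like 0 higher (24.6%) and 32 lower (31%). Oligodendrocyte precursor-like nuclei, with 10 higher (17.1%) and 15 lower (21.8%), had the most higher genes of the 4 glial classes. Immature neuron-like nuclei had 3 higher (7.57%) and 22 lower (15.3%), and Cajal-Retzius-like nuclei 4 higher (6.74%) and 20 lower (15.6%). The median difference of the 35 genes was -2.73 on the log2 scale in microglia-like nuclei, where all tested genes had -0.17, and 0.15 in subicular or cortical excitatory-like nuclei, where all tested genes had -0.04.

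After CFC, most of the 35 genes were higher with HDACi in DG granule-like nuclei, and a small set was lower. All 35 passed the filter on low counts. By edgeR's quasi-likelihood test with Benjamini-Hochberg adjustment over 15548 genes, 26 of the 35 were called higher, where 23.8% of all tested genes were, and 6 were called lower, where 26.4% were. The median log2 fold change was 0.36 for the 35 genes and 0.01 for all tested genes. The 6 lower genes were Shank3, Lrfn1, Ptprf, Dlg1, Nlgn2 and Lrrtm3. The direction of a fold change here is relative to the other genes of the class. With plain library-size scaling the median of all tested genes moved to -0.35. Then 6 of the 35 were called higher, where 9.96% of all tested genes were, and 9 lower, where 45.7% were. The 6 were Nrxn3, Dlg2, Dlgap1, Dlgap2, Dlgap3 and Dlgap4, and all 6 genes called lower above stayed lower. The median of the 35 genes was then -0.001.

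Other measures moved with the drug in the same class. Median UMIs per DG granule-like nucleus were 5494 and 6475 in HDACi-CFC and 6095 and 7084 in Veh-CFC. The granule cluster numbered 4 made up 17.3% and 14.3% of the class in HDACi-CFC libraries 1 and 2, against 23.8% and 23.0% in Veh-CFC libraries 1 and 2. The 10 astrocyte markers, all detected, summed to 1561 to 1683 CPM in HDACi-CFC and 984.4 to 1012 CPM in Veh-CFC. Of these the highest was Slc4a4, which also leads a granule cluster. The 11 oligodendrocyte markers summed to 355.3 to 396.2 CPM in HDACi-CFC and 431.6 to 438.9 CPM in Veh-CFC. The part of these shifts in the results was not tested. In fits of each of the 3 granule clusters alone, chosen after seeing the data, 19 of the 32 calls were made in every cluster, Shank3, Dlg1 and all 4 DLGAP genes among them, and 13 were lost in at least 1.

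**Figure D2:**
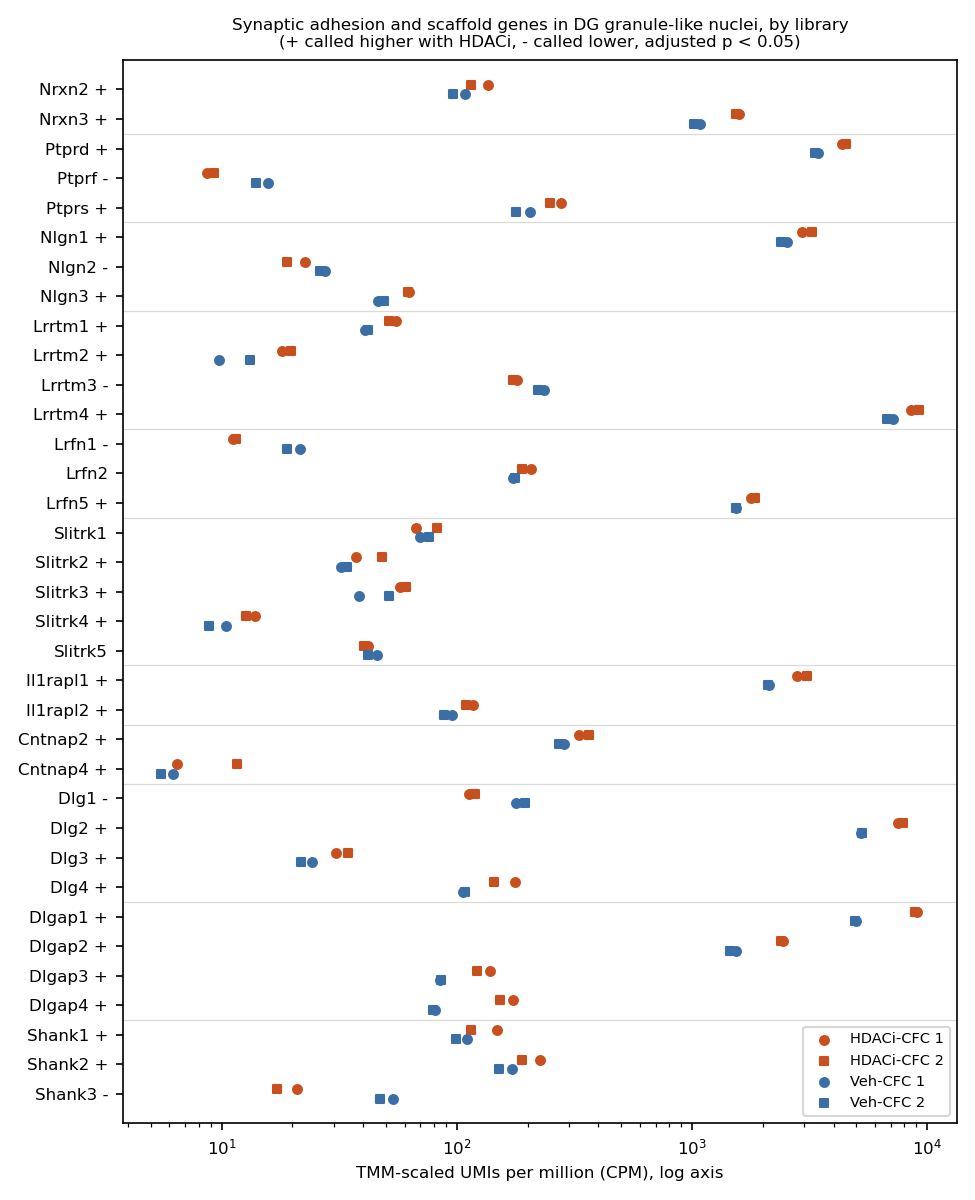
Level of each gene in DG granule-like nuclei in TMM-scaled CPM (log axis), with 1 symbol per library, HDACi-CFC in orange above Veh-CFC in blue. Dlgap4 sits at 173.7 and 152.3 CPM in HDACi-CFC, right of the 80.79 and 79.17 CPM in Veh-CFC, and Shank3 sits at 21.01 and 17.18 CPM, left of the 53.52 and 46.97 CPM in Veh-CFC. With library-size scaling 6 genes rather than 26 were called higher, where 9.96% rather than 23.8% of all tested genes were.

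The DLGAP genes, which encode the adaptors between DLG and SHANK proteins, had the highest median change of the 11 families. All 4 rose, with a median log2 fold change of 0.77, and all 4 calls were kept with library-size scaling. With per-nucleus scaling only Dlgap4 of the 4 kept its call. Dlgap4 had 173.7 and 152.3 CPM in the HDACi-CFC libraries (1025 and 1365 UMIs), against 80.79 and 79.17 CPM in the Veh-CFC libraries (640 and 1035 UMIs). Every HDACi library was above every Veh library, and the change was 2.03-fold, log2 1.02 ± 0.083 (SE, edgeR adjusted p = 1.78e-09). Dlgap1 had 9088 and 8843 CPM in HDACi-CFC and 4989 and 4925 CPM in Veh-CFC, a 1.81-fold change (log2 0.85 ± 0.047, edgeR adjusted p = 5.18e-12). It is among the most abundant of the 35 in these nuclei, and the groups did not overlap. Dlgap2 had 2431 and 2396 CPM in HDACi-CFC and 1539 and 1448 CPM in Veh-CFC, and Dlgap3 had 138.6 and 121.4 CPM in HDACi-CFC and 84.58 and 85.52 CPM in Veh-CFC. Their log2 fold changes were 0.69 ± 0.055 and 0.61 ± 0.085. Dlgap1 overlaps 5031415H12Rik on the opposite strand, which was also higher, at 390.7 CPM in HDACi-CFC and 178.3 CPM in Veh-CFC. Whether reads of the 2 genes were counted apart is not known.

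The SHANK genes, the deepest layer of the scaffold, went in opposite directions. Shank3, whose human ortholog is lost or mutated in Phelan-McDermid syndrome, had 21.01 and 17.18 CPM in the HDACi-CFC libraries (124 and 154 UMIs), against 53.52 and 46.97 CPM in the Veh-CFC libraries (424 and 614 UMIs). This was 2.65-fold lower (log2 -1.41 ± 0.127, edgeR adjusted p = 7.94e-09), the lowest value among the 35, and held its sign and its call under every alternative run. Shank1 had 147.8 and 115.3 CPM in HDACi-CFC and 110.1 and 98.76 CPM in Veh-CFC (log2 0.33 ± 0.098, edgeR adjusted p = 0.00797). Shank2 had 225.5 and 189.3 CPM in HDACi-CFC and 172.4 and 151.6 CPM in Veh-CFC (log2 0.36 ± 0.086, edgeR adjusted p = 0.00166). Both were higher without overlap, but with library-size scaling their values were -0.04 and -0.01. The Shank1 call was also lost without Veh-CFC replicate 2 (0.26, edgeR adjusted p = 0.0858) and without HDACi-CFC replicate 1 (0.15, edgeR adjusted p = 0.159).

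The promoters at the ends of this range and those with a CRE motif are shown next. RefSeq windows of 300 bases (250 before and 50 after a transcription start) on GRCm38.p6 matched 24 of the 35 genes, with 40 windows. Capitals mark the letters of the motifs searched on both strands. Searched were the cyclic AMP response element or CRE, spelled TGACGTCA, the GC box, spelled GGGCGG, the TATA box, spelled TATAAA, the CCAAT box under its own letters, and the palindromic NRF1 motif. Dlgap4 had the highest fold change and Shank3 the lowest. The Ptprs and Slitrk2 windows are the 2 of 40 (5.0%) with a CRE, which 1.79% of all 32851 windows hold. The Dlgap4 window is chr2:156720715-156721014 (plus strand, 76.33% GC), inside the annotated gene (chr2:156613705-156764363). The Shank3 window is chr15:89499358-89499657 (plus strand, 81.0% GC), at the start of the gene. The Ptprs window is chr17:56476431-56476730 (minus strand, 65.67% GC) and the Slitrk2 window is chrX:66652909-66653208 (plus strand, 60.33% GC).
Dlgap4: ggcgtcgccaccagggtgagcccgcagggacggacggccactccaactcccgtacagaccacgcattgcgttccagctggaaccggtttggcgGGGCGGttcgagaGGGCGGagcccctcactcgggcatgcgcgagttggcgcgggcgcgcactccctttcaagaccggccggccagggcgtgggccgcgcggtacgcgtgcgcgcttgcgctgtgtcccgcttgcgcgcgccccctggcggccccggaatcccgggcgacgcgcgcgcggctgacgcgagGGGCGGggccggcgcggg
Shank3: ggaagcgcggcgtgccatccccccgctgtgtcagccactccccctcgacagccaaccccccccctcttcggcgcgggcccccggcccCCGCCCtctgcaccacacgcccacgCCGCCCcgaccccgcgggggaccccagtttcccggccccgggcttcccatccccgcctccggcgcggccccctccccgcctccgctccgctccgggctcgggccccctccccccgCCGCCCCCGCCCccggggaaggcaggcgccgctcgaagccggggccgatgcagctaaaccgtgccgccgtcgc
Ptprs: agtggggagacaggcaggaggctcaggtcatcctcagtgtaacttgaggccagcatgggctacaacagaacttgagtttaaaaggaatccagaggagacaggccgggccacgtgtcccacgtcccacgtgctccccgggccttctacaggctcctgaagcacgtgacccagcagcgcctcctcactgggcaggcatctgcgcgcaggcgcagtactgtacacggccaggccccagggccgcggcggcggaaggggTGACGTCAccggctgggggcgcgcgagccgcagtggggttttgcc
Slitrk2: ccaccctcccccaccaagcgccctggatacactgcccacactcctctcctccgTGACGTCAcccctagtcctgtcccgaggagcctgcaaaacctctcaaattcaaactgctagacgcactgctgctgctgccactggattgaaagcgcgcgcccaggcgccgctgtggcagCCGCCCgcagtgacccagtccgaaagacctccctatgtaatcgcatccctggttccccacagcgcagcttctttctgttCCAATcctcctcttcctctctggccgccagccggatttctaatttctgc
A GC box stood in 15 of the 40 windows (37.5%) and in 35.66% of all windows, a CCAAT box in 10 (25.0%) and in 37.41%, a TATA box in 3 (7.5%) and in 13.62%, and the NRF1 letters in 0 and in 0.97%. The median GC content was 56.17% in the 40 windows and 52.67% over all. A match is a run of letters in this window and says nothing on binding.

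Among the DLG genes, which anchor receptors at the postsynaptic density, 3 rose and Dlg1 fell. Dlg1, the scaffold also called SAP97 that acts in receptor transport, had 112.3 and 119.4 CPM in HDACi-CFC (663 and 1070 UMIs), against 178 and 195 CPM in Veh-CFC (1410 and 2549 UMIs). It was 1.61-fold lower (log2 -0.69 ± 0.079, edgeR adjusted p = 2.6e-07), with no overlap. Dlg2 had 7550 and 7877 CPM in HDACi-CFC and 5254 and 5260 CPM in Veh-CFC (1.47-fold, log2 0.55 ± 0.047). Dlg4, which encodes PSD-95, the main scaffold of excitatory synapses, had 176.2 and 143.7 CPM in HDACi-CFC and 106.7 and 108.2 CPM in Veh-CFC (1.48-fold, log2 0.57 ± 0.088, edgeR adjusted p = 1.62e-05). The 4 libraries fell into separate groups for both genes. Dlg3, an X-linked relative, had 30.5 and 34.36 CPM in HDACi-CFC and 24.24 and 21.73 CPM in Veh-CFC. Of these, Dlg3 and Dlg4 kept their positive sign but lost their call with library-size scaling (0.15 and 0.20), while Dlg1 and Dlg2 kept theirs.

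Among the presynaptic receptors, both neurexins and 2 of the 3 LAR-type phosphatases rose. Nrxn3 had 1579 and 1545 CPM in HDACi-CFC, against 1084 and 1017 CPM in Veh-CFC, which was 1.49-fold higher (log2 0.57 ± 0.058, edgeR adjusted p = 4.67e-08). Nrxn2 had 136.2 and 114.9 CPM in HDACi-CFC and 108.4 and 96.16 CPM in Veh-CFC (log2 0.29 ± 0.091, edgeR adjusted p = 0.00999). The Nrxn2 groups stood close together, and its call was lost without Veh-CFC replicate 2 (0.21, edgeR adjusted p = 0.167), without HDACi-CFC replicate 1 (0.18, edgeR adjusted p = 0.0953) and, with the sign turned, under library-size scaling (-0.07). Ptprd had 4352 and 4505 CPM in HDACi-CFC and 3422 and 3331 CPM in Veh-CFC (log2 0.39 ± 0.05), and Ptprs had 277.1 and 249.4 CPM in HDACi-CFC and 204.5 and 178.8 CPM in Veh-CFC (log2 0.46 ± 0.079). Both were separated by group, with library-size values of 0.03 and 0.10. Ptprf, the third phosphatase, went the other way at 8.642 and 9.259 CPM in HDACi-CFC and 15.78 and 14 CPM in Veh-CFC (1.64-fold lower, log2 -0.71 ± 0.172, edgeR adjusted p = 0.00151). The Ptprf call was not made in granule clusters 3 and 4 alone.

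Postsynaptic partners of neurexins were divided as well. Of the neuroligins, Nlgn1 had 2942 and 3240 CPM in HDACi-CFC and 2534 and 2396 CPM in Veh-CFC (log2 0.33 ± 0.057, edgeR adjusted p = 5.92e-05). Nlgn3 had 62.53 and 61.91 CPM in HDACi-CFC and 46.33 and 48.96 CPM in Veh-CFC (log2 0.38 ± 0.094). Nlgn2 was lower at 22.71 and 18.96 CPM in HDACi-CFC and 27.65 and 26.24 CPM in Veh-CFC (log2 -0.38 ± 0.135, edgeR adjusted p = 0.0228). Nlgn1 and Nlgn3 therefore stood on one side and the neuroligin of inhibitory synapses on the other, though with library-size scaling Nlgn1 was at -0.04 and Nlgn3 at 0.02. The Nlgn2 call was kept without HDACi-CFC replicate 1 (-0.50, edgeR adjusted p = 0.0048). It was lost without Veh-CFC replicate 1 (edgeR adjusted p = 0.112), Veh-CFC replicate 2 (edgeR adjusted p = 0.069) or HDACi-CFC replicate 2 (edgeR adjusted p = 0.244).

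Of the LRRTM genes, 3 rose and 1 fell. Lrrtm4 had 8553 and 9240 CPM in HDACi-CFC and 7140 and 6765 CPM in Veh-CFC (log2 0.36 ± 0.05, edgeR adjusted p = 3.91e-06), and -0.01 with library-size scaling. Lrrtm2 had 18.13 and 19.74 CPM in HDACi-CFC (107 and 177 UMIs), against 9.72 and 13.23 CPM in Veh-CFC (77 and 173 UMIs), which was 1.62-fold higher (log2 0.70 ± 0.166, edgeR adjusted p = 0.00144). Lrrtm3 had 181 and 173.7 CPM in HDACi-CFC and 235.1 and 220.5 CPM in Veh-CFC, which was 1.28-fold lower (log2 -0.36 ± 0.073, edgeR adjusted p = 0.000288). The groups were apart for each of these, and Lrrtm1, at 54.9 and 51.54 CPM in HDACi-CFC and 40.52 and 41.84 CPM in Veh-CFC (log2 0.36 ± 0.099), turned to -0.001 with library-size scaling. Lrrtm1, Lrrtm2 and Lrrtm3 each lie within an alpha-catenin gene on the opposite strand, and each moved the way its host did. Ctnna2 was at 0.36, Ctnna1 at 1.15 and Ctnna3 at -0.24 on the log2 scale, and whether reads of host and guest were counted apart is not known. Called neighbours of other genes also went the same way as their gene. They were 4930567K12Rik opposite Dlg2 (0.43), Gm42303 opposite Ptprd (0.62) and Gm14372 opposite Shank2 (0.31). Every called neighbour thus had the sign of its gene, while those not called did not all move with theirs. 1700008O03Rik, opposite Shank1 (0.33), was at -0.26, and A830092H15Rik, opposite Nlgn1 (0.33), was at -0.08. Gm4409, opposite Lrrtm4, was at 0.06, and none of these last neighbours was called.

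Among the postsynaptic partners of LAR-type phosphatases, both IL1RAPL genes rose. Il1rapl1, an X-linked gene tied to intellectual disability in humans, had 2786 and 3094 CPM in HDACi-CFC and 2117 and 2103 CPM in Veh-CFC (1.39-fold, log2 0.48 ± 0.057, edgeR adjusted p = 4.37e-07), and 0.12 with library-size scaling. Il1rapl2 had 117.3 and 109.2 CPM in HDACi-CFC and 95.18 and 88.12 CPM in Veh-CFC (log2 0.31 ± 0.083), and -0.06 with library-size scaling. Of the LRFN genes, Lrfn1 had 11.18 and 11.49 CPM in HDACi-CFC and 21.59 and 18.89 CPM in Veh-CFC (1.77-fold lower, log2 -0.82 ± 0.157, edgeR adjusted p = 0.000172). Lrfn5 was higher, with 1783 and 1862 CPM in HDACi-CFC and 1540 and 1532 CPM in Veh-CFC (log2 0.25 ± 0.055), but at -0.12 with library-size scaling, and Lrfn2, at 206.7 and 188.6 CPM in HDACi-CFC and 172.6 and 177.1 CPM in Veh-CFC, was not called (log2 0.17 ± 0.074, edgeR adjusted p = 0.0572). Lrfn1 overlaps Samd4b on the opposite strand, itself at -0.48.

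Of the 5 SLITRK genes, short genes of low level in nuclei, 3 were called higher and 2 not called. Slitrk2 had 37.45 and 48.3 CPM in HDACi-CFC and 32.06 and 34.19 CPM in Veh-CFC. Slitrk3 had 57.11 and 60.57 CPM in HDACi-CFC and 38.38 and 51.25 CPM in Veh-CFC, and Slitrk4 had 13.9 and 12.72 CPM in HDACi-CFC and 10.48 and 8.874 CPM in Veh-CFC. The groups did not overlap, and the log2 fold changes were 0.38 ± 0.12, 0.38 ± 0.115 and 0.47 ± 0.173. These calls each depended on single libraries. Slitrk2 was at 0.18 without HDACi-CFC replicate 2 (edgeR adjusted p = 0.324), Slitrk3 at 0.20 without Veh-CFC replicate 1 (edgeR adjusted p = 0.263) and Slitrk4 at 0.34 without Veh-CFC replicate 2 (edgeR adjusted p = 0.277). Slitrk1 had 67.27 and 82.32 CPM in HDACi-CFC and 69.81 and 76.11 CPM in Veh-CFC, and Slitrk5 had 42.03 and 40.16 CPM in HDACi-CFC and 45.95 and 41.92 CPM in Veh-CFC. The groups of both overlapped (log2 0.04 ± 0.098 and -0.09 ± 0.104).

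The 2 CNTNAP genes were higher, 1 of them on few molecules. Cntnap2 had 332.1 and 366.3 CPM in HDACi-CFC and 284.9 and 270.7 CPM in Veh-CFC (log2 0.33 ± 0.071, edgeR adjusted p = 0.000489), and -0.03 with library-size scaling. Cntnap4 had 6.439 and 11.6 CPM in HDACi-CFC (38 and 104 UMIs), against 6.186 and 5.508 CPM in Veh-CFC (49 and 72 UMIs). The first HDACi-CFC library was barely above the Veh-CFC libraries. Without HDACi-CFC replicate 2 the Cntnap4 value was 0.16 (edgeR adjusted p = 0.693), against 0.70 with all 4 libraries.

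Leaving out each CFC library in turn kept 24 of the 32 calls in all 4 cases, with 21 to 25 genes called higher and 5 or 6 lower. The 8 calls lost in at least 1 case were those of Nrxn2, Nlgn2, Slitrk2, Slitrk3, Slitrk4, Il1rapl2, Cntnap4 and Shank1.

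With TMM scaling, long genes as a whole had a higher median log2 fold change than shorter genes in this class. The length groups were not computed with library-size scaling, which moved the median of all tested genes to -0.35. With all tested genes cut into 4 equal groups by span, the longest group (68.7 to 4430 kb) had 34.1% called higher, 23.4% lower and a median log2 fold change of 0.17. Of the 35 genes, 19 were in that group, with 15 higher, 3 lower and a median of 0.36. The other 3 groups had all-gene medians between -0.09 and -0.01. In the next longest group 5 of 6 were called higher, where 22.2% of all genes were, with a median of 0.49. In the next shorter one 4 of 6 were called higher (18.6% of all genes) and 2 lower (29.6%), and in the shortest 2 of 4 were called higher (20.2%). In CA1-like nuclei 12 of 19 were called higher in the longest group (31.3%) and 4 of 6 in the next (17.6%), but 1 of 6 (12.7%) and 1 of 4 (12.4%) in the 2 shorter groups, with medians of -0.13 and -0.003. This is a description, since the genes are not replicates.

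**Figure D3:**
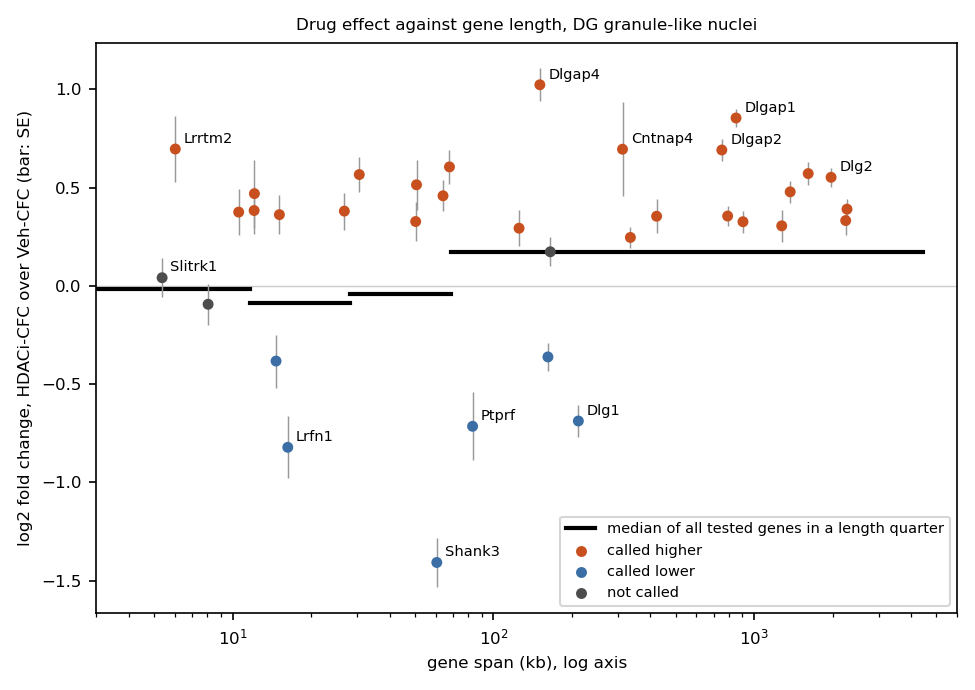
Log2 fold change of each gene in DG granule-like nuclei, HDACi-CFC over Veh-CFC, with its SE (vertical axis), against gene span in kb (log axis), and black lines at the median of all tested genes in each of 4 length groups. The line of the longest group is at 0.17, Dlgap4 is the highest point at 1.02 and Shank3 the lowest at -1.41. With library-size scaling 11 of the 35 points change sign.

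Lists of related genes were read in the same DG granule-like fit, with the same background of 23.8% higher and 26.4% lower. Of other adhesion molecules and secreted organizers across the cleft, 29 of 33 were tested, 20 were higher and 2 lower, with a median of 0.33. The highest were Nptx1, a neuronal pentraxin that clusters AMPA receptors, Lrrc4, a postsynaptic netrin-G partner, and Ntrk3, the neurotrophin receptor that also binds Ptprs, at 1.11, 0.98 and 0.91. Flrt1 and Clstn3 were lower at -0.80 and -0.44. Of other excitatory scaffold genes, 28 of 29 were tested, 16 were higher and 4 lower, with a median of 0.50. Mpp3 was at 1.54, Cnksr2 at 1.29 and Sipa1l2 at 1.13, and the lowest were Magi3 at -0.93, Nos1 at -0.68 and Cask at -0.41. Cnksr2, a scaffold bound by PSD-95, averaged 1175 ± 12.1 CPM in HDACi-CFC and 482.1 ± 9.7 CPM in Veh-CFC (SD, n = 2 each).

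Scaffold genes of inhibitory synapses were few. Of 8 genes in that list 5 were tested in DG granule-like nuclei, and 1 was higher and 3 lower, with a median of -0.22. In interneuron-like nuclei 3 of 5 were higher (16.9% of all tested genes) and 1 lower (13.1%), with a median of 0.32. In CA3-like nuclei 2 of 5 were higher (13.8%) and 0 lower (12.2%), with a median of 0.20. In CA1-like nuclei 1 of 5 was higher (18.5%) and 0 lower (20%), with a median of 0.03, so the higher count there was near the background. The lists were not tested against each other. Iqsec3, Lhfpl4 and Shisa7 were lower at -0.90, -0.52 and -0.22. Gphn, which encodes gephyrin, the main inhibitory scaffold, averaged 742.7 ± 16.1 CPM in HDACi-CFC and 699.4 ± 3.19 CPM in Veh-CFC and was not called (log2 0.09 ± 0.06, edgeR adjusted p = 0.242).

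In the 10 other classes, 289 pairs of gene and class could be tested, of which 111 were called higher with HDACi and 9 lower. In CA1-like nuclei 18 of 35 were higher, where 18.5% of all tested genes were, and 4 lower (20%). In CA3-like nuclei 11 of 35 were higher (13.8%) and 2 lower (12.2%), in interneuron-like 18 of 35 higher (16.9%) and 0 lower (13.1%), and in subicular or cortical excitatory-like 14 of 35 higher (12.1%) and 1 lower (8.67%). Median log2 fold changes in these 4 classes were 0.32, 0.22, 0.36 and 0.30, where the medians of all tested genes lay between -0.02 and 0.002. With library-size scaling 53 pairs over the 10 classes were called higher and 35 lower, and the balance turned in 3 classes. It was 8 higher and 11 lower in CA1-like nuclei (7.56% and 42.3% of all tested genes), 5 and 6 in CA3-like (6.22% and 25.9%), and 2 and 5 in oligodendrocyte precursor-like nuclei (9.76% and 27.8%). In interneuron-like nuclei it was 9 and 5 (7.16% and 34.1%), and in subicular or cortical excitatory-like nuclei 7 and 6 (4.69% and 26.9%). Without Veh-CFC replicate 2 fewer of the 35 genes, and fewer of all tested genes, were called higher in subicular or cortical excitatory-like nuclei. The median log2 fold change of the 35 was then 0.255, against 0.296 with all 4 libraries.

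Of these, 8 genes were called higher in all 5 of the large neuronal classes, DG granule-like included, where 4.84% of the 10446 genes tested in all 5 classes were. They were Nrxn3, Nlgn1, Il1rapl1, Cntnap2, Dlg2, Dlgap1, Dlgap2 and Dlgap4. Dlgap4 led in each of them. It averaged 321.1 ± 29.6 CPM in HDACi-CFC and 155 ± 6.06 CPM in Veh-CFC in CA1-like nuclei (log2 1.05 ± 0.088, edgeR adjusted p = 1.66e-07). In interneuron-like nuclei it averaged 198 ± 15.2 CPM in HDACi-CFC and 91.64 ± 5.28 CPM in Veh-CFC (log2 1.12 ± 0.115), and it was at 0.95 in CA3-like and 0.90 in subicular or cortical excitatory-like nuclei. In none of the 5 did the 2 groups overlap. Dlgap1 averaged 6943 ± 269 CPM in HDACi-CFC and 4009 ± 94.8 CPM in Veh-CFC in CA1-like nuclei (log2 0.79 ± 0.05). The further leading genes were Dlgap2 in CA1-like (0.78), CA3-like (0.65) and interneuron-like nuclei (0.91), Shank2 in interneuron-like nuclei (0.90), and Cntnap4 (0.88) and Il1rapl2 (0.88) in subicular or cortical excitatory-like nuclei.

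Fewer genes were lower, and Shank3 and Dlg1 recurred. Shank3 fell in CA1-like nuclei to 34.18 ± 1.85 CPM in HDACi-CFC, against 65.38 ± 0.437 CPM in Veh-CFC (SD, n = 2 each, log2 -0.94 ± 0.108, edgeR adjusted p = 4.29e-06). It fell in subicular or cortical excitatory-like nuclei (log2 -0.96 ± 0.188), though not without HDACi-CFC replicate 2 (-0.72, edgeR adjusted p = 0.0731). In CA3-like nuclei it averaged 83.55 ± 14.2 CPM in HDACi-CFC and 89.5 ± 0.155 CPM in Veh-CFC (log2 -0.12 ± 0.138, edgeR adjusted p = 0.551). Dlg1 was lower in CA1-like (-0.65 ± 0.099) and CA3-like nuclei (-0.81 ± 0.127), Ptprf in CA1-like nuclei (-0.84 ± 0.195) and Nlgn2 in CA3-like nuclei (-0.71 ± 0.22). The CA3-like Nlgn2 call was lost without Veh-CFC replicate 1 (edgeR adjusted p = 0.0714) and without HDACi-CFC replicate 2 (edgeR adjusted p = 0.168).

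**Figure D4:**
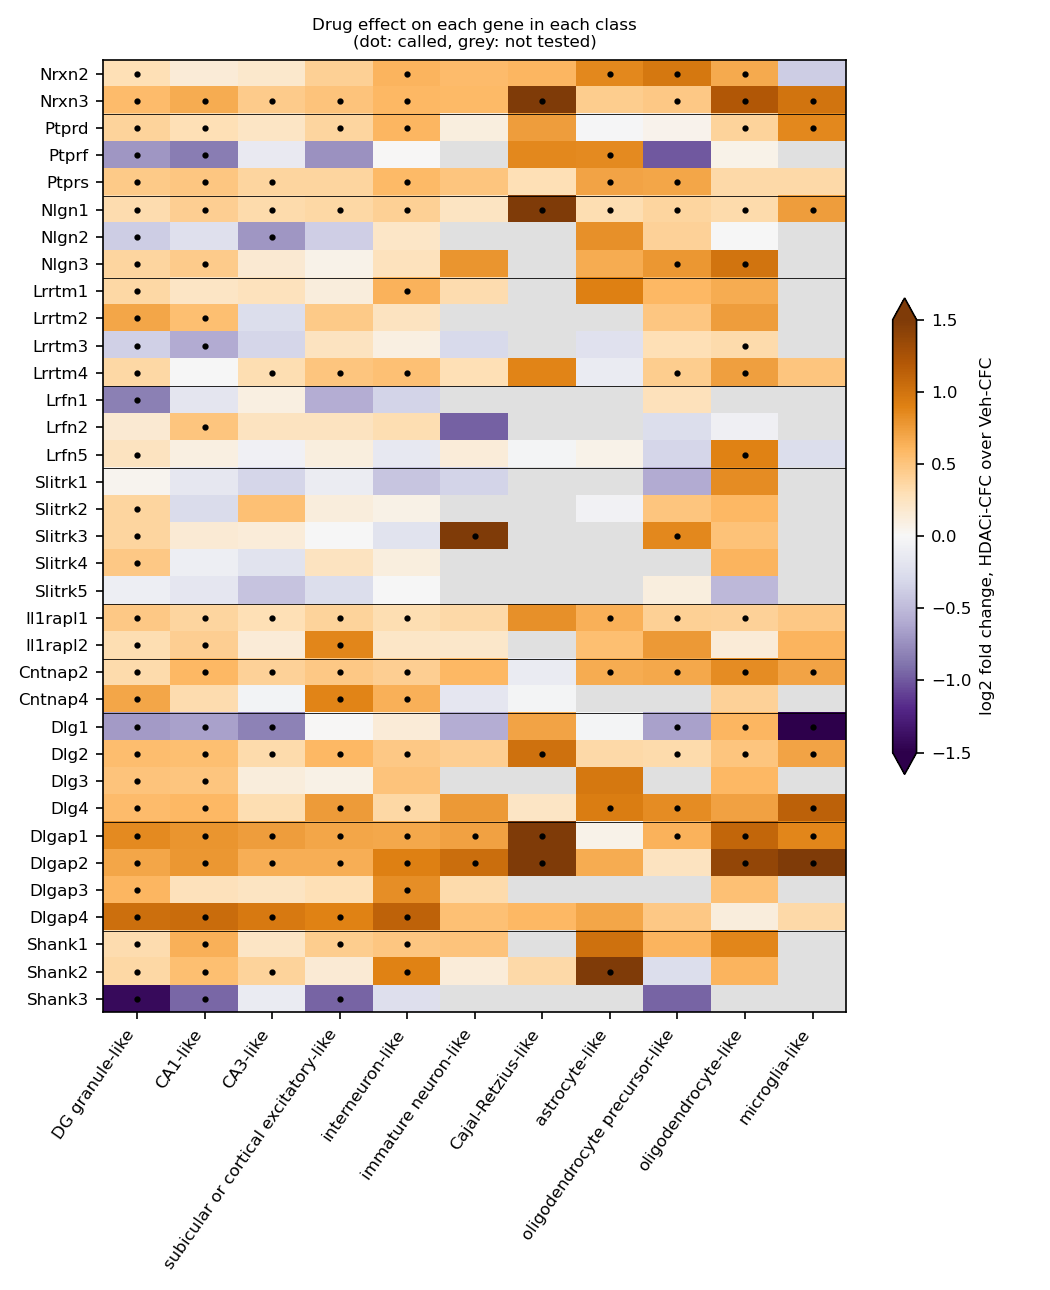
Log2 fold change, HDACi-CFC over Veh-CFC, for each gene (down the page, grouped by family) in each class (across), orange for higher and purple for lower, with a dot where the gene was called and grey where it was not tested. Dlgap1 and Nlgn1 carry a dot in 10 of 11 classes, Shank3 is purple in DG granule-like at -1.41 and near 0 in CA3-like at -0.12, and Dlg1 is orange in oligodendrocyte-like at 0.60. With library-size scaling 53 rather than 111 of the pairs outside DG granule-like were called higher.

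The drug effect differed between classes for some genes. Tests of each class against DG granule-like nuclei, with library as a block, called 41 pairs of gene and class under both TMM and library-size scaling. The signed log2 fold change in the class was above that in DG granule-like nuclei in 32 of the 41 and below it in 9. A value above it can be a weaker fall, as for Shank3. The genes called were 7 of 35 in CA1-like nuclei (13% of all genes), 3 in CA3-like (8.72%), 5 in interneuron-like (11.6%) and 3 in subicular or cortical excitatory-like nuclei (6.81%). In glia they were 10 in oligodendrocyte-like (13.8%), 3 in oligodendrocyte precursor-like (7.23%), 3 in astrocyte-like (7.53%) and 1 in microglia-like nuclei (8.33%). In Cajal-Retzius-like nuclei 6 were called (1.27%) and in immature neuron-like nuclei 0 (0.607%). For Shank3 the log2 fold change was -0.12 in CA3-like and -1.41 in DG granule-like nuclei, a fitted difference of 1.20 ± 0.16 (edgeR adjusted p = 1.39e-10). In interneuron-like nuclei it was -0.25, a fitted difference of 1.05 ± 0.195 (edgeR adjusted p = 9.02e-05). Lrfn1 also differed between CA3-like (0.09) and DG granule-like nuclei (-0.82), with a fitted difference of 0.84 ± 0.24 (edgeR adjusted p = 0.00685).

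Dlg1 went in opposite directions in glia. In oligodendrocyte-like nuclei, where it peaks, it rose to 697.5 and 707.1 CPM in HDACi-CFC, against 472.8 and 453.8 CPM in Veh-CFC (log2 0.60 ± 0.099, edgeR adjusted p = 0.000254). In DG granule-like nuclei it fell, and the fitted difference of 1.44 ± 0.131 was called (edgeR adjusted p = 1.57e-14). In microglia-like nuclei it fell to 44.4 and 56.4 CPM in HDACi-CFC (10 and 22 UMIs), against 180.1 and 180.8 CPM in Veh-CFC (55 and 89 UMIs). That was log2 -1.79 ± 0.289 (edgeR adjusted p = 4.86e-08), with a fitted difference from DG granule-like nuclei of -1.23. The Context pair had Dlg1 at 706.5 CPM in HDACi and 407.5 CPM in Veh in oligodendrocyte-like nuclei, and at 44.24 CPM in HDACi and 141 CPM in Veh in microglia-like nuclei.

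In glial classes the calls were mostly higher. Astrocyte-like nuclei had 8 of 25 tested genes higher (17.3% of all tested genes) and 0 lower (13.6%), oligodendrocyte precursor-like 12 of 31 higher (17.2%) and 1 lower (13.2%), oligodendrocyte-like 14 of 33 higher (19.6%) and 0 lower (17.4%), and microglia-like 8 of 16 higher (20.8%) and 1 lower (18.5%). Nrxn2, which is highest in precursors and astrocytes, averaged 1802 ± 129 CPM in HDACi-CFC and 920.4 ± 14.5 CPM in Veh-CFC in oligodendrocyte precursor-like nuclei (log2 0.97 ± 0.116, edgeR adjusted p = 2.59e-09). In astrocyte-like nuclei it averaged 734.2 ± 82 CPM in HDACi-CFC and 400.2 ± 25.2 CPM in Veh-CFC (log2 0.87 ± 0.145). The groups did not overlap in either class. The astrocyte-like count of 8 higher was 1 of 26 without Veh-CFC replicate 2 and 21 of 31 with the marker gate per nucleus. The microglia-like count of 8 was 4 when Veh-CFC replicate 2 was left out and 5 when HDACi-CFC replicate 2 was, and the oligodendrocyte precursor-like count of 12 was 7 with the marker gate. Shank2 (1.49) and Dlg4 (0.93) in astrocyte-like and Slitrk3 (0.86), Dlg4 (0.84) and Dlg1 (-0.66) in oligodendrocyte precursor-like nuclei each lost their call without at least 1 library.

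Oligodendrocyte-like and microglia-like nuclei gave Dlgap2 and Nrxn3 as leading genes. In oligodendrocyte-like nuclei Nrxn3 averaged 250.2 ± 1.75 CPM in HDACi-CFC and 109.4 ± 8.68 CPM in Veh-CFC (log2 1.20 ± 0.133), Dlgap2 was at 1.38 ± 0.187 and Dlgap1 at 1.09 ± 0.128. In microglia-like nuclei Dlgap2 was at 1.61 ± 0.351, Dlg4 at 1.13 ± 0.382 and Nrxn3 at 0.99 ± 0.204. In the Context pair Nrxn3 was at -0.39 in oligodendrocyte-like and -0.06 in microglia-like nuclei, and Dlgap2 at -0.84 and -0.38. The 8 granule markers in microglia-like nuclei, a neuronal list, summed to 396.7 to 444.6 CPM in HDACi-CFC and 253.8 to 297.2 CPM in Veh-CFC, and their part in the result was not tested. In oligodendrocyte-like nuclei they summed to 586.4 to 624.8 CPM in HDACi-CFC and 681.5 to 720.6 CPM in Veh-CFC.

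The small classes rested on few nuclei. In immature neuron-like nuclei 3 of 26 genes were higher (8.54% of all tested genes) and 0 lower (4.61%), namely Slitrk3 (1.53 ± 0.38), Dlgap2 (1.04 ± 0.17) and Dlgap1 (0.72 ± 0.153). Slitrk3 there had 16 and 31 UMIs in HDACi-CFC and 6 and 12 UMIs in Veh-CFC, and its call was lost without Veh-CFC replicate 2 (edgeR adjusted p = 0.0771) or HDACi-CFC replicate 2 (edgeR adjusted p = 0.0887). In Cajal-Retzius-like nuclei 5 of 18 were higher (11%) and 0 lower (6.28%), with 45 and 45 nuclei in HDACi-CFC and 37 and 43 in Veh-CFC. Dlgap2 was at 3.70, Dlgap1 at 2.85 and Nrxn3 at 2.82. Most of these UMIs in HDACi-CFC came from 3 nuclei per library. For Dlgap1 those held 114 of 129 and 193 of 217 UMIs in HDACi-CFC, and outside the top 3 nuclei of each library there were 15 and 24 UMIs in HDACi-CFC and 16 and 14 in Veh-CFC. In the Context pair Dlgap1 had 12 UMIs in HDACi and 24 in Veh in this class. The Cajal-Retzius-like count was smaller without Veh-CFC replicate 1 or 2, as was the share of all tested genes, and larger without HDACi-CFC replicate 2. Medians of the tested genes were then 0.895, 0.617 and 0.892 in turn, against 0.726 with all 4 libraries. The immature neuron-like count was larger without HDACi-CFC replicate 1 (median 0.44, against 0.336 with all 4 libraries). With the marker gate it was 11 of 35 (12.4% of all tested genes). Without the Cajal-Retzius-like class 106 pairs were higher and 9 lower in the other 9.

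Mice that were not shocked gave mostly the same signs in DG granule-like nuclei. The Context pair holds 1 library per group, so ratios carry 95% counting intervals, which leave out the spread between libraries, and there was no test. Of the 35 genes, 27 had a ratio of HDACi-Context to Veh-Context above 1, where 51.6% of genes with at least 100 UMIs did, and 26 had an interval wholly above it, where 36.3% did. The median log2 ratio was 0.33, against 0.02 over those genes. With library-size scaling 17 ratios were above 1 and the median over genes was -0.34. Of the 32 genes called in CFC, 31 had the same sign in Context. Of all 7806 genes called in CFC in this class with a Context ratio, 95.8% did, so the count for the 35 genes is near the background.

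Shank3 had 213 UMIs in HDACi-Context and 587 UMIs in Veh-Context (16.32 and 41.67 CPM), a log2 ratio of -1.35 (-1.59 to -1.12). Dlgap4 had 1598 UMIs in HDACi-Context and 967 UMIs in Veh-Context, 0.84 (0.72 to 0.95), and Dlg1 had 1443 UMIs in HDACi-Context and 2746 UMIs in Veh-Context, -0.82 (-0.91 to -0.73). Each lay close to its CFC value of -1.41, 1.02 and -0.69. Lrrtm2 had 382 UMIs in HDACi-Context and 191 UMIs in Veh-Context, 1.11 (0.86 to 1.37). The gene with the other sign was Cntnap4, with 79 UMIs in HDACi-Context and 133 UMIs in Veh-Context, -0.64 (-1.06 to -0.23). CA1-like nuclei had Shank3 at -0.97 (-1.20 to -0.73) and Dlgap4 at 0.77 (0.67 to 0.88). In CA1-like, interneuron-like and subicular or cortical excitatory-like nuclei, all 22, 18 and 15 genes called in CFC had the same sign in Context, where 95.2%, 94.5% and 95.2% of all genes called in CFC did. In oligodendrocyte-like nuclei 8 of 14 did (91.5% of all called genes), in microglia-like 5 of 9 (92.7%) and in Cajal-Retzius-like 1 of 5 (78.6%).

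**Figure D5:**
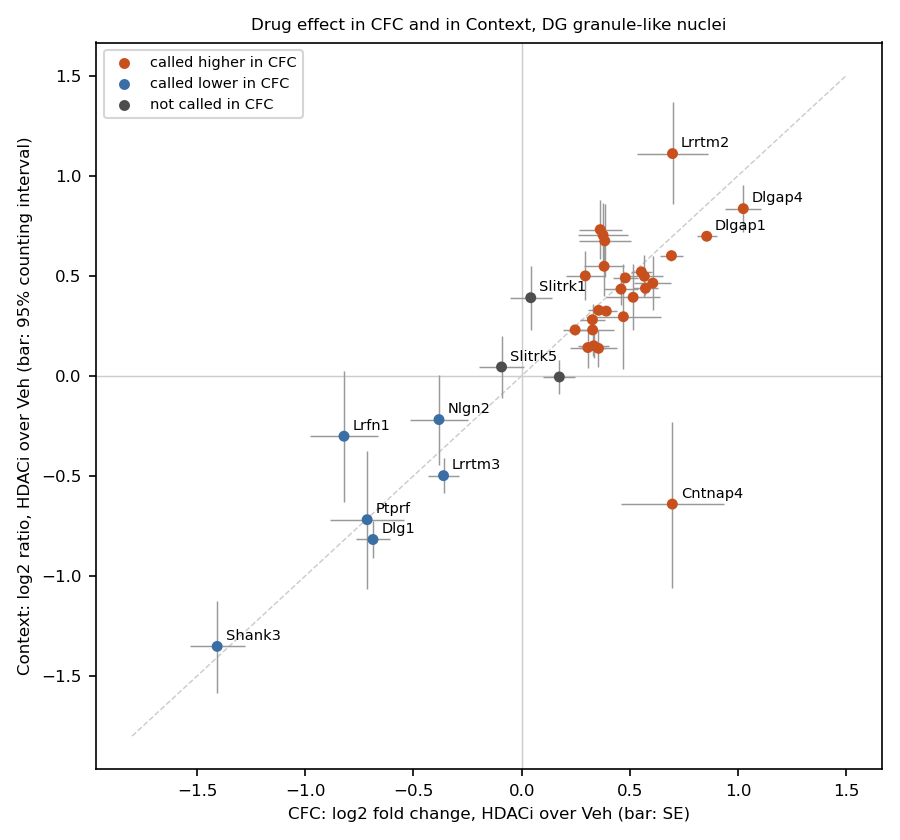
Drug effect on each gene in DG granule-like nuclei, as log2 fold change of HDACi-CFC over Veh-CFC with its SE (horizontal) and log2 ratio of HDACi-Context over Veh-Context with its 95% counting interval (vertical), and a dashed line of equality. Shank3 is low on both axes (-1.41 and -1.35), Dlgap4 is high on both (1.02 and 0.84), and Cntnap4 is the called gene with opposite signs (0.70 and -0.64). With library-size scaling 17 rather than 27 genes are above 0 on the vertical axis.

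Whether the drug effect differed between CFC and Context was tested with all 6 libraries, where the spread comes from the CFC libraries alone. In DG granule-like nuclei 0 of 35 genes were called by edgeR (0.913% of 17853 genes were), and 2 had an unadjusted p below 0.05 (3 with library-size scaling), Cntnap4 and Lrrtm1. The Context effect minus the CFC effect was -1.33 ± 0.368 for Cntnap4 (edgeR adjusted p = 0.0959) and 0.37 ± 0.163 for Lrrtm1 (edgeR adjusted p = 0.442). In CA1-like nuclei 0 were called (0.516% of 17047 genes), 9 had an unadjusted p below 0.05 (4 with library-size scaling), and the lowest edgeR adjusted p was 0.207, for Cntnap2 at -0.33 ± 0.099. With 1 library per Context group these tests do not show that the effects were equal.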

How the data were processed

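Single nuclei of 6 libraries were measured by droplet sequencing. The authors deposited filtered matrices of raw UMI counts per gene and barcode. Cell Ranger was 3.0.1 for the CFC and 3.0.2 for the Context matrices, per the file headers, and the submitters' processing notes name Seurat 4.0.3 and mm10. Strand and intron settings are not given in the sources used here.

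The quality filter asked for 500 genes or more and a mitochondrial share of UMIs no higher than 5%. Scrublet then marked 927 doublets (1.981% to 4.542% per library), which were dropped. Nuclei were clustered in scanpy 1.11.5 (2000 variable genes, 30 components, 20 neighbours, Leiden resolution 1.0, leidenalg 0.10.2, Python 3.11.15), without the genes described here. Clusters were named by marker lists, with thresholds set after the clusters were seen. A per-nucleus marker gate put 69.9% of named nuclei in the same class. The share was lower in DG granule-like nuclei, where the gate gave 4430 the same class. It gave 1254 of them CA2-like, 1018 mossy cell-like and 735 choroid plexus or ependymal-like, with the rest spread over other lists. Counts were summed per library and class.

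The drug was tested in the 4 CFC libraries with edgeR 4.0.16 (quasi-likelihood, TMM, filterByExpr, R 4.3.3), adjusted over all tested genes of a class and called below 0.05. Classes were compared in joint fits with library as a block. On simulated counts for the 15459 genes of the DG granule-like step, 91% of 2-fold and 47% of 1.5-fold changes were recovered. The simulation set the same spread for every gene and changed a small set of genes, as many up as down. In the real data far more genes were called, so recovery there may differ. Depth is the UMI total of each library, and the counting intervals of the Context pair (95%) cover counting error only. Replicates differed beyond sampling noise. Alternatives were DESeq2 1.42.0 (test and size factors), library-size and per-nucleus scaling, no filter, the marker gate, nuclei with at least 1000 genes, all 6 libraries, a replicate block, each library left out, and, chosen after seeing the data, each granule cluster alone. The members and lists were chosen with earlier results of these data known. In DG granule-like nuclei any of the 35 genes could be named. In each other class, and for each related list, the 3 highest and 3 lowest called genes were named. At baseline the 3 most abundant genes of a class and the highest class of a gene were named. Values named outside this rule were chosen after they were seen, namely Shank3 in CA3-like and interneuron-like, Lrfn1 in CA3-like and Dlg1 in oligodendrocyte-like nuclei, and the opposite-strand neighbours. The list genes Insyn1, Insyn2a and Insyn2b were not matched in the matrices. The values of 1 called gene of the related lists are not reported here. No genes matched on level and length were drawn, and all tested genes and length groups serve as background.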

Additional observations from a re-analysis of the deposited data

Results flagged for a closer look

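For 41 pairs of gene and class, the drug effect in CFC (HDACi over Veh) differed from that in DG granule-like nuclei by a test of the difference with TMM and with library-size scaling. Each value is the fitted log2 difference, class minus DG granule-like, from the joint fit of both classes with TMM scaling. It need not equal the difference between the fold changes of the separate fits. No explanation was tested. In astrocyte-like nuclei the differences were Dlgap1 -0.91, Ptprf 1.45 and Shank3 1.57. In CA1-like nuclei the differences were Dlgap3 -0.42, Lrfn1 0.57, Lrfn2 0.26, Lrrtm4 -0.42, Shank1 0.23, Shank3 0.39 and Slitrk2 -0.74. In CA3-like nuclei the differences were Lrfn1 0.84, Lrfn5 -0.39 and Shank3 1.20. In Cajal-Retzius-like nuclei the differences were Dlg1 1.73, Dlgap1 2.34, Dlgap2 3.36, Nlgn1 1.70, Nrxn3 2.47 and Ptprf 1.92. In interneuron-like nuclei the differences were Dlg1 0.73, Lrfn5 -0.49, Lrrtm3 0.35, Shank2 0.45 and Shank3 1.05. In microglia-like nuclei the difference was Dlg1 -1.23. In oligodendrocyte precursor-like nuclei the differences were Lrfn5 -0.68, Lrrtm3 0.56 and Nrxn2 0.57. In oligodendrocyte-like nuclei the differences were Cntnap2 0.64, Dlg1 1.44, Dlgap2 0.83, Dlgap4 -0.72, Lrfn5 0.80, Lrrtm3 0.84, Lrrtm4 0.53, Nrxn2 0.53, Nrxn3 0.78 and Ptprf 0.93. In subicular or cortical excitatory-like nuclei the differences were Dlg1 0.61, Il1rapl2 0.53 and Lrrtm3 0.54. The Cajal-Retzius-like values for Dlgap1, Dlgap2 and Nrxn3 rest on 3 nuclei per HDACi-CFC library that held most of the UMIs. The astrocyte-like Shank3 value rests on a gene below the count filter of that class alone.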

How the results depend on the processing

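Scaling moved the counts most among the alternatives run. In DG granule-like nuclei library-size scaling called 6 of the 35 genes higher and 9 lower, where 9.96% of all tested genes were higher and 45.7% lower, and per-nucleus scaling called 1 higher and 8 lower (4.28% and 46.6%), with medians of all genes of -0.35 and -0.50. In the 10 other classes library-size scaling gave 53 pairs higher and 35 lower, and per-nucleus scaling 9 higher and 25 lower. In Context 17 ratios were above 1 with library-size scaling. Granule cluster 4 alone gave 3 genes lower. Leaving out 1 library gave 21 to 25 genes higher and 5 to 6 lower in DG granule-like nuclei, and 82 to 121 pairs higher and 8 to 12 lower elsewhere. The other alternatives stayed within 1.5 times of these counts, DESeq2's Wald test with 23 higher and 5 lower among them. With the replicate block 27 genes were higher and 6 lower, and 120 and 11 pairs. Whether the replicate numbers pair the samples is not known, since there are only 2 pairs and no shared batch is labelled. The correlation of same-numbered deviations was 0.248 in DG granule-like, 0.202 in CA1-like and 0.157 in CA3-like nuclei, and lower in the other classes. Reversed log2 values, library-size scaling, were Nrxn2 -0.070, Nlgn1 -0.037, Lrrtm1 -0.001, Lrrtm4 -0.008, Lrfn2 -0.190, Lrfn5 -0.117, Slitrk1 -0.322, Il1rapl2 -0.058, Cntnap2 -0.031, Shank1 -0.035 and Shank2 -0.008. Reversed log2 values, per-nucleus scaling, were Nrxn2 -0.223, Nlgn1 -0.181, Nlgn3 -0.135, Lrrtm1 -0.153, Lrrtm4 -0.153, Lrfn2 -0.345, Lrfn5 -0.266, Slitrk1 -0.472, Slitrk2 -0.131, Slitrk3 -0.139, Slitrk4 -0.049, Il1rapl1 -0.031, Il1rapl2 -0.210, Ptprd -0.121, Ptprs -0.057, Cntnap2 -0.178, Dlg3 -0.002, Shank1 -0.191 and Shank2 -0.162. The reversed log2 value, without Veh-CFC replicate 1, was Slitrk1 -0.022. The reversed log2 value, without HDACi-CFC replicate 2, was Slitrk1 -0.118. Reversed log2 values, granule cluster 0 alone, were Slitrk1 -0.260 and Slitrk5 0.047. The reversed log2 value, granule cluster 4 alone, was Slitrk4 -0.008. Over the left-out libraries Slitrk1 ran between -0.118 and 0.169. The cause of these changes was not tested. Low UMI totals limit Cntnap4, Lrrtm2, Slitrk4 and the small classes.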
